A study of Mus musculus with 16 samples.

Results

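The elastic fibre and microfibril genes described here are Eln, Fbn1, Fbn2, Fbln1, Fbln2, Fbln5, Mfap4, Mfap5, Emilin1 and Efemp1, 10 of the 55414 genes in the count table. They were chosen by name as components of elastic fibres, with earlier results of these data known. Each matched 1 Ensembl identifier by its symbol: ENSMUSG00000029675, ENSMUSG00000027204, ENSMUSG00000024598, ENSMUSG00000006369, ENSMUSG00000064080, ENSMUSG00000021186, ENSMUSG00000042436, ENSMUSG00000030116, ENSMUSG00000029163 and ENSMUSG00000020467, in that order. RNA was sequenced from cultured mouse heart fibroblasts given an adenovirus that carried either Cre recombinase or green fluorescent protein (GFP). The Cre virus was meant to delete the hyaluronan synthase gene Has2, and the GFP virus was the control. Each virus was combined with or without transforming growth factor beta (TGF-beta), which gave 4 groups of 4 libraries: GFP cells, Cre cells, GFP cells with TGF-beta and Cre cells with TGF-beta. Per the labels' protocols all groups were handled alike: the cells were expanded in medium with serum and basic fibroblast growth factor, treated at P2, kept without serum for 24 h, exposed to virus for 5 h and lysed for total RNA after 48 h of stimulation. The protocol gives Has2 fl/fl mice as the source, but every library carries the genotype Wild Type C57BL/6J, and nothing settles the conflict. After the virus the medium held basic fibroblast growth factor and TGF-beta "respectively", each at 20 ng/mL, which leaves unstated which groups had the former. Differences with TGF-beta and any difference in that factor therefore cannot be told apart. The age of the mice is not given in the sources used here. Each replicate number is 1 preparation of cells spread over the 4 groups, with preparations 1 and 4 labelled male and preparations 2 and 3 female. The number of hearts behind a preparation is not given in the sources used here.

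Elastic fibres give tissues recoil. They consist of a core of crosslinked elastin, made from soluble tropoelastin, and a sheath of microfibrils built from fibrillins. Fibulins and EMILINs sit at the border of core and sheath and help to place tropoelastin on the microfibrils, where lysyl oxidases crosslink it. Microfibrils also hold latent TGF-beta in the matrix, and fibroblasts are a main source of these proteins in the heart.

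Library totals ranged from 17.9 to 48.7 M counts. The levels below are CPM, the counts scaled to the library total. The targeted gene Has2 was at 18.2, 15.2, 22.9 and 20.4 CPM in preparations 1 to 4 of the GFP cells and at 15.4, 13.5, 16.6 and 15.6 in the Cre cells. With TGF-beta Has2 was at 14.2, 8.60, 20.6 and 22.1 CPM in GFP cells and at 11.9, 10.5, 23.8 and 18.6 in Cre cells. The Has2 difference did not pass edgeR's test in either medium (log2 -0.35 ± 0.26 without and -0.03 ± 0.26 with TGF-beta), and counts summed over the whole gene do not separate exon 2, the part named for deletion, from the exons that remain, so they do not check the virus labels. Acta2, the smooth muscle actin of myofibroblasts, rose with TGF-beta from 337 ± 73.2 to 2128 ± 434 CPM in GFP cells and from 322 ± 68.3 to 2147 ± 388 in Cre cells (mean ± SD, n = 4). The 8 fibroblast markers summed to 14058 to 33351 CPM per library, the 7 macrophage markers to 353 to 1472, the 8 markers of smooth muscle and pericytes to 83.3 to 217, the 7 endothelial markers to 17.3 to 47.7, the 6 cardiomyocyte markers to 2.54 to 23.2 and the 6 mesothelial markers to 2.59 to 8.60. The cardiomyocyte genes Actc1 and Nppa were at 0 in all libraries. The fibroblast sums rest mostly on Col1a1 and Col1a2, at means of 9768 and 9806 CPM in GFP cells, where Pdgfra followed at 967. The macrophage sums rest mostly on Lyz2, at a mean of 576 CPM in GFP cells, where C1qa followed at 96.1. Preparation 4 stood apart from the other 3. Its fibroblast markers summed to 14058 to 16829 CPM against 23510.0 to 33351 in the others, and its macrophage markers to 869 to 1472 against 353 to 733. The 10 most abundant genes held 6.88% to 7.34% of its counts against 10.3% to 12.1%.

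Levels of different genes were compared only per length, as CPM per kilobase of annotated exon. In GFP cells Fbln2, a fibulin that links fibrillin and basement membrane proteins, had the highest level of the 10 at 1906 ± 361 CPM per kilobase (SD, n = 4). Fbn1, the main microfibril fibrillin, followed at 265 ± 74.1 and Emilin1, an elastin-binding glycoprotein, at 201 ± 44.2. The ranges of the last pair overlapped, while Fbln2 lay above both in every library. Efemp1 (fibulin-3) at 84.6 ± 31.3, Mfap4 at 49.2 ± 24.9, Fbln1 at 40.9 ± 16.2, Fbln5 at 38.6 ± 8.70 and Mfap5 at 33.8 ± 3.97 formed a run in which each gene overlapped the next. Eln, which encodes tropoelastin, lay below them at 9.89 ± 5.54 CPM per kilobase. Fbn2, the fibrillin made mostly during development, came last at 0.0539 ± 0.0394 and rested on 1 to 36 counts per library in this group. The order in Cre cells was the same except that Fbln1 (36.0 ± 14.8) came after Fbln5 (37.6 ± 8.96) and Mfap5 (36.8 ± 6.65), by margins within their spread.

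With TGF-beta the middle of this order was rearranged. In GFP cells with TGF-beta Fbln2 (1825 ± 359), Fbn1 (248 ± 95.7) and Emilin1 (124 ± 18.8 CPM per kilobase) still led. Mfap5 came next at 67.9 ± 18.6, followed by Mfap4 at 51.7 ± 26.1, Eln at 37.5 ± 17.6 and Fbln5 at 25.1 ± 9.16. These 4 each overlapped their neighbour in the order. Fbln1 at 6.27 ± 1.35 and Efemp1 at 3.26 ± 0.530 were separated from the genes above them and from each other. Efemp1 thus moved from the fourth place to the ninth, ahead of Fbn2 at 0.0407 ± 0.0232.

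**Figure D1:**
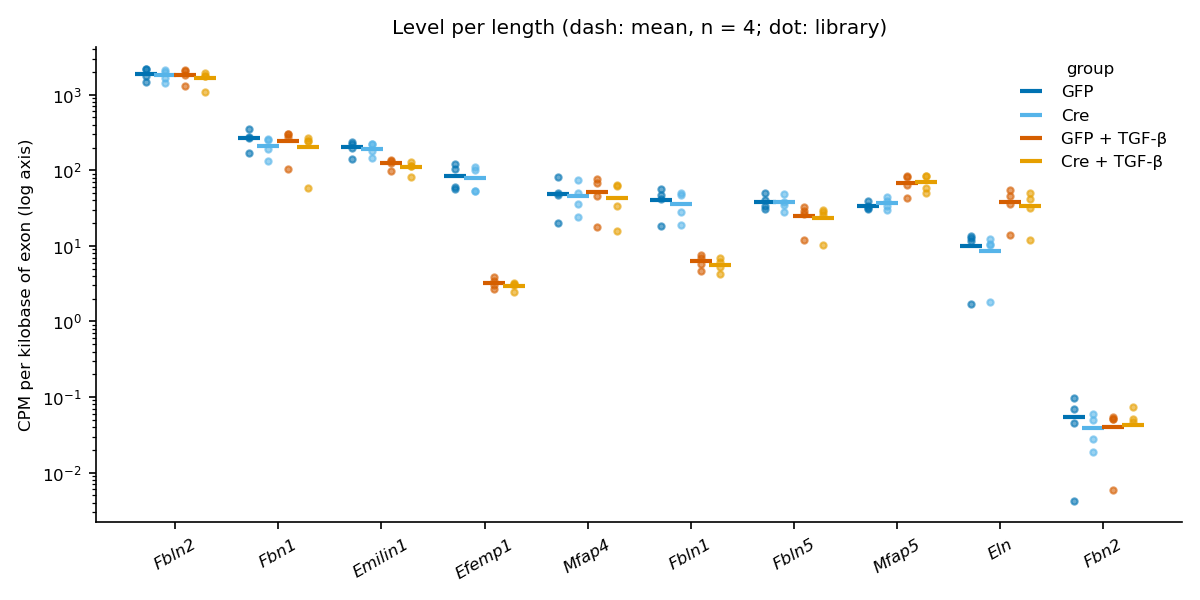
CPM per kilobase of annotated exon (log axis) of each gene in the 4 groups; dots are single libraries and dashes the mean of 4. Fbn2 in preparation 4 of the Cre cells with TGF-beta had 0 counts and has no dot. Fbln2 leads in every group and Efemp1 drops from 84.6 in GFP cells to 3.26 with TGF-beta.

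The first comparison, GFP cells with and without TGF-beta, addressed how the fibroblasts respond to the growth factor with the control virus. Of the 10 genes, Eln and Mfap5 rose, Fbln1 and Efemp1 fell, and 6 did not pass. At an adjusted p under 0.05 the quasi-likelihood F test of edgeR called 29.1% of all 15285 genes tested, 13.8% higher and 15.3% lower. All 10 genes entered the test. CPM ranges with and without TGF-beta did not overlap for 5 of the 10 (the 4 that passed and Emilin1), beside 29.5% of all genes. With the preparation as a block, a term that compares libraries within each preparation, Emilin1 and Fbln5 fell as well, which made 2 higher and 4 lower, against 49.1% of all genes called (22.6% higher, 26.5% lower). Without preparation 4 and without the block 5 of the 10 passed, against 39.9% of all genes, and with the block 6, against 53%. The median log2 fold change of the 10 was -0.18, beside -0.02 over all genes. In bulk RNA, fewer cells of a type and less RNA per cell cannot be told apart. Among the cell type markers in the fit without the block, 5 of 8 fibroblast, 2 of 7 endothelial and 2 of 7 macrophage genes fell with TGF-beta in GFP cells, with none of these 3 lists having a gene that rose. Of the smooth muscle and pericyte genes 1 of 8 rose and 3 fell, and 1 of 5 tested mesothelial and 2 of 2 tested cardiomyocyte genes fell. With the block 7 of 7 macrophage, 4 of 7 endothelial and 2 of 5 mesothelial genes fell, 2 fibroblast genes rose and 5 fell, and 2 smooth muscle and pericyte genes rose and 4 fell. The summed endothelial level went from between 36.7 and 47.6 CPM to between 17.3 and 26.8, and the macrophage level from between 608 and 1367 to between 364 and 869. The fibroblast sum, mostly Col1a1 and Col1a2, went the other way, from between 14975 and 26361 to between 16829 and 33351. The smooth muscle and pericyte sum went from between 118 and 217 to between 107 and 168. The cardiomyocyte sum went from between 5.26 and 16.2 to between 2.64 and 6.38, and the mesothelial sum from between 3.08 and 5.61 to between 2.59 and 3.75. The part of these lists in the results was not tested.

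Eln, the core of the fibre, was at 110.1, 104, 93.0 and 13.6 CPM in GFP cells and at 366, 445, 291 and 112 with TGF-beta. The lowest library with TGF-beta, that of preparation 4, was just above the highest without it, that of preparation 1. Eln rose by 2.02 ± 0.69 (log2 ± SE, adjusted p = 0.0391), or 4.05-fold, and was higher in 4 of 4 preparations. Preparation 4 was 7.52-fold below the mean of the others in GFP cells and 3.28-fold below with TGF-beta. Of the 8 fits that each left out 1 library, 7 lost the Eln call (adjusted p up to 0.0953), and it was kept without the TGF-beta library of preparation 4 (2.31, adjusted p = 0.0223). Leaving out preparation 1, 2 or 3 also lost it (adjusted p up to 0.160), as did the fit with no filter on low counts (adjusted p = 0.121), while without preparation 4 the rise was 1.95 (adjusted p = 3.33e-06). With the block it was 2.18 ± 0.20 (adjusted p = 1.45e-06), and with the block the call was kept whichever preparation was left out.

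Neither fibrillin passed in either fit. Fbn1 was at 3241, 3336, 4241 and 2052 CPM in GFP cells and at 3366, 3704, 3671 and 1279 with TGF-beta. Its difference was 0.01 ± 0.45, and by preparation 0.05, 0.15, -0.21 and -0.68, so that preparation 4 moved apart from the others. The groups overlapped for both fibrillins. Fbn2 was at 0.912, 1.29, 0.597 and 0.0560 CPM in GFP cells and at 0.672, 0.684, 0.717 and 0.0782 with TGF-beta. Its difference of -0.36 ± 0.82 rested on 1 to 36 counts per library, so a change was not detectable at this depth.

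Mfap5 encodes MAGP-2, a small glycoprotein bound to microfibrils. It was at 123, 141, 113 and 109 CPM in GFP cells and at 297, 295, 227 and 156 with TGF-beta. All 4 libraries with TGF-beta were above all 4 without. Mfap5 rose by 1.11 ± 0.25 (log2 ± SE, adjusted p = 0.00380), or 2.16-fold. The rise was 1.27, 1.06, 1.00 and 0.52 by preparation. Without the block the call was lost when preparation 1 was left out (1.00, adjusted p = 0.0575). With the block it was kept whichever preparation was left out.

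Mfap4, which encodes a fibrinogen-related microfibril protein that binds tropoelastin, ranged from 38.3 to 155 CPM in GFP cells and from 34.5 to 146 with TGF-beta. Its difference was 0.18 ± 0.55 and did not pass in either fit. Preparation accounted for 93.0% of the sum of squares of Mfap4 and TGF-beta for 0.166%.

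Among the fibulins, Fbln1 encodes fibulin-1, found in elastic fibres and basement membranes. It was at 208, 245, 182 and 79.9 CPM in GFP cells and at 25.4, 33.5, 30.5 and 20.1 with TGF-beta, again with no overlap. Fbln1 fell 6.15-fold (log2 -2.62 ± 0.39, adjusted p = 0.000139). By preparation the log2 difference was -3.01, -2.85, -2.56 and -1.97, the smallest in preparation 4, which started lowest. Without preparation 4 it was -2.72.

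Efemp1 encodes fibulin-3, an extracellular glycoprotein of elastic tissues and basement membranes. It was at 209, 121, 116 and 243 CPM in preparations 1 to 4 of the GFP cells and at 7.09, 5.40, 7.88 and 6.18 with TGF-beta. Every library with TGF-beta was far below every library without it. The log2 fold change of -4.60 ± 0.29 (adjusted p = 6.62e-08) was a 24.2-fold decrease, and Efemp1 was lower in 4 of 4 preparations. Preparation 4 had the highest Efemp1 level without TGF-beta but not with it. TGF-beta accounted for 97.5% of the sum of squares of its log2 CPM over the 16 libraries and preparation for 1.30%.

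Fbln5, the fibulin that binds tropoelastin and lysyl oxidase-like enzymes during fibre assembly, was at 233, 347, 278 and 209.7 CPM in GFP cells and at 202, 225, 185 and 81.7 with TGF-beta. The groups overlapped, because preparation 4 without TGF-beta was below preparation 2 with it. Its log2 fold change of -0.51 ± 0.37 did not pass (adjusted p = 0.327). With the block Fbln5 fell by 0.61 (SE 0.18, adjusted p = 0.0148), with differences of -0.21, -0.62, -0.58 and -1.36 by preparation. Preparation 4 again differed from the rest, here with the largest decrease.

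Fbln2 was at 11118, 13958, 14116 and 9382 CPM in GFP cells and at 11756, 13391, 12994 and 8359.9 with TGF-beta, a difference of 0.03 ± 0.25 with a 95% interval from -0.51 to 0.57. It did not pass in either fit.

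Emilin1, a glycoprotein at the border of elastin and microfibrils that is also known to restrain the processing of pro-TGF-beta, was at 1115, 1179.6, 980.2 and 688 CPM in GFP cells. With TGF-beta it was at 685, 618, 662 and 478. The groups did not overlap, although preparation 4 without TGF-beta was only just above preparation 1 with it. The log2 fold change was -0.61 ± 0.23 (adjusted p = 0.0641), which missed the threshold without the block. With the block the value was -0.59 ± 0.07 and passed (adjusted p = 7.75e-06). It also passed without preparation 4 (-0.63, adjusted p = 0.000310) and without GFP replicate 4 alone (-0.78, adjusted p = 0.0133). It was lower in 4 of 4 preparations.

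**Figure D2:**
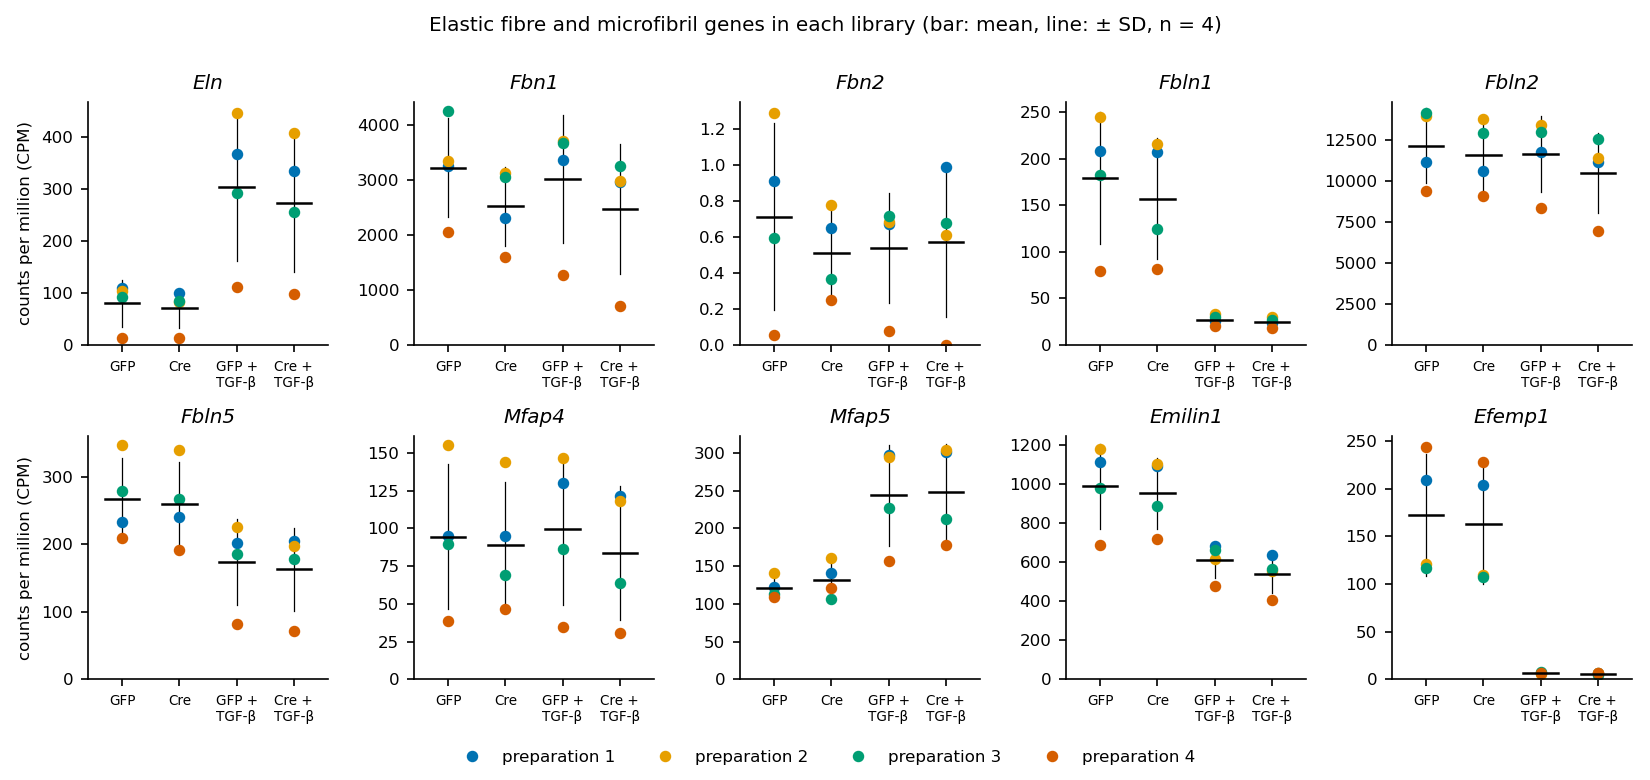
CPM of the 10 genes in each library, with 1 panel per gene and 1 point per library coloured by preparation; black bars are the mean and thin lines the SD of 4 libraries. Eln and Mfap5 are higher and Fbln1 and Efemp1 lower with TGF-beta, and preparation 4 is the lowest point of every group for 8 of the 10 genes.

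RefSeq promoter windows (build GRCm38.p6) matched 6 of the 10 genes by symbol: Fbn1, Fbln1, Fbln2, Fbln5, Emilin1 and Efemp1. The 250 bases before the annotated start of Efemp1, Fbln1 and Emilin1 are shown because these 3 genes fell with TGF-beta in Cre cells (and, for Emilin1 in GFP cells, with the block), in order from the largest to the smallest decrease. All are on the plus strand, at chr11:28852955-28853204, chr15:85205699-85205948 and chr5:30913536-30913785, and they are written 5′ to 3′ with motif matches in capitals. The motifs searched, on both strands, were the SMAD-binding element CAGAC or GTCTG, the AP-1 site TGANTCA and the TATA box TATAAA or TTTATA. SMAD proteins carry the TGF-beta signal to DNA, and AP-1 factors often bind beside them.
Efemp1: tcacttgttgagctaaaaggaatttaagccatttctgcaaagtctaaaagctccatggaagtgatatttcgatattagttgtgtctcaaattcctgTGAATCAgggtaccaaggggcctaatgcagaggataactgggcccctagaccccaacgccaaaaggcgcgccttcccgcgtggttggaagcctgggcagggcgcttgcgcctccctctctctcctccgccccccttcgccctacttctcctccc
Fbln1: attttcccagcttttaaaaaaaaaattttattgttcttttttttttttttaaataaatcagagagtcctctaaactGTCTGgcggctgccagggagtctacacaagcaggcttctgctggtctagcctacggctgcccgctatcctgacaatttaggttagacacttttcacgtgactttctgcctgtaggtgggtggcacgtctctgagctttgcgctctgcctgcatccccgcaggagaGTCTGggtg
Emilin1: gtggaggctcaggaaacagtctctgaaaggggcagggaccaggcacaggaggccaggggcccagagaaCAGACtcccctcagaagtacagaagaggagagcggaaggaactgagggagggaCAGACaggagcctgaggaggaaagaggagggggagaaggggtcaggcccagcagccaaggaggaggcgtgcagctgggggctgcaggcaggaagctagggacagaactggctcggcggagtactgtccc
The Efemp1 window held 1 AP-1 match and 0 SMAD-binding elements, while the Fbln1 and Emilin1 windows held 2 SMAD-binding elements each and no AP-1 match. None held a TATA match, and no match overlapped that of another motif. Among the matched windows not shown, a second Fbln1 window held 2 SMAD-binding elements, the Fbln5 windows held 0 and 2, and those of Fbn1 and Fbln2 held 0. All of these held 0 AP-1 and 0 TATA matches. Over all 32851 promoter windows of this length, 42.2% held a SMAD-binding element, 6.75% an AP-1 match and 12.4% a TATA match. GC content was 53.6% for Efemp1, 46.4% for Fbln1 and 63.2% for Emilin1. A match of letters is a description and no evidence of binding.

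The same comparison was made with the Cre virus. Eln and Mfap5 rose and Fbln1, Emilin1 and Efemp1 fell, 5 of 10, where the test called 30.3% of all genes (14% higher, 16.3% lower). With the block Fbln5 fell too (-0.66 ± 0.18, adjusted p = 0.00838), against 52.5% of all genes called (25.2% higher, 27.3% lower). Without preparation 4, 6 of the 10 passed in both fits, against 42.7% of all genes without the block and 56.6% with it. The median log2 fold change of the 10 was -0.03, beside 0.02 over all genes. In the markers without the block, 5 of 8 fibroblast, 2 of 7 endothelial, 2 of 7 macrophage, 2 of 5 tested mesothelial and 1 of 2 tested cardiomyocyte genes fell, and of 8 smooth muscle and pericyte genes 1 rose and 3 fell. With the block 6 macrophage, 4 endothelial and 2 cardiomyocyte genes fell, 1 fibroblast gene rose and 5 fell, 1 mesothelial gene rose and 2 fell, and 2 smooth muscle and pericyte genes rose and 5 fell. The part of these lists was not tested. CPM ranges with and without TGF-beta did not overlap for 4 of the 10, Fbln1, Mfap5, Emilin1 and Efemp1, beside 28.4% of all genes.

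Eln was at 99.8, 82.4, 84.4 and 14.6 CPM in Cre cells and at 333, 408, 255 and 97.6 with TGF-beta. Here the groups overlapped, since preparation 4 with TGF-beta was just below preparation 1 without it, although Eln was higher with TGF-beta within each preparation. Eln rose by 2.04 ± 0.69 (log2 ± SE, adjusted p = 0.0367). As in GFP cells, 7 of 8 fits without 1 library lost the call (adjusted p up to 0.0898). So did the fits without preparation 1, 2 or 3 (adjusted p up to 0.169) and the fit with no filter (adjusted p = 0.113). The rise in Eln was 1.99 without preparation 4 (adjusted p = 2.83e-06) and 2.17 ± 0.20 with the block (adjusted p = 1.40e-06). With the block the call was kept whichever preparation was left out.

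Fbn1 was at 2302, 3125, 3056 and 1605 CPM and at 2950.3, 2985, 3253 and 716 with TGF-beta. Its difference was 0.06 ± 0.45 over the group, but 0.36, -0.07, 0.09 and -1.16 by preparation. Fbn1 did not pass in either fit. Mfap5 was at 141, 160.4, 106 and 120.3 CPM in Cre cells and at 301, 304, 212 and 177 with TGF-beta, with no overlap. It rose by 1.00 ± 0.25 (adjusted p = 0.00734), and the call was lost without preparation 1 (adjusted p = 0.0749) or 3 (adjusted p = 0.0587). With the block the Mfap5 call was kept whichever preparation was left out.

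Efemp1 was at 204, 109.9, 108 and 228 CPM in preparations 1 to 4 of the Cre cells and at 6.62, 6.30, 5.05 and 6.21 with TGF-beta. The groups again did not overlap, and Efemp1 fell 25.1-fold (log2 -4.65 ± 0.29, adjusted p = 5.05e-08). Fbln1 was at 207, 216, 124 and 82.1 CPM and at 23.2, 30.4, 26.8 and 18.5 with TGF-beta. It did not overlap either, and fell by 2.59 (SE 0.39, adjusted p = 0.000148). Fbln5 was at 240.4, 339.9, 267 and 192 CPM in Cre cells and at 205, 197, 178 and 71.9 with TGF-beta. The 2 ranges overlapped only through preparation 4 without TGF-beta, which was below preparations 1 and 2 with it. Without preparation 4 Fbln5 fell by 0.46 (adjusted p = 0.0309, no block).

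Emilin1 was at 1095, 1106, 891 and 721 CPM and at 637, 555, 564 and 405.5 with TGF-beta. These groups did not overlap, and Emilin1 fell by 0.74 (SE 0.23, adjusted p = 0.0264). That call was lost without Cre replicate 1 (-0.67, adjusted p = 0.0750) or 2 (-0.64, adjusted p = 0.0803), without Cre replicate 4 with TGF-beta (-0.59, adjusted p = 0.0705) and without preparation 1, 2 or 3 (adjusted p from 0.102 to 0.150). With the block it was -0.74 ± 0.07 (adjusted p = 7.46e-07), and with the block the call was kept whichever preparation was left out.

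Fbln2 differed by -0.06 ± 0.25, Mfap4 by -0.002 ± 0.55 and Fbn2 by 0.25 ± 0.80, and none passed in either fit. Fbn2 had 0 counts in preparation 4 with TGF-beta, which allows a level of up to 0.128 CPM by counting error alone.

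**Figure D3:**
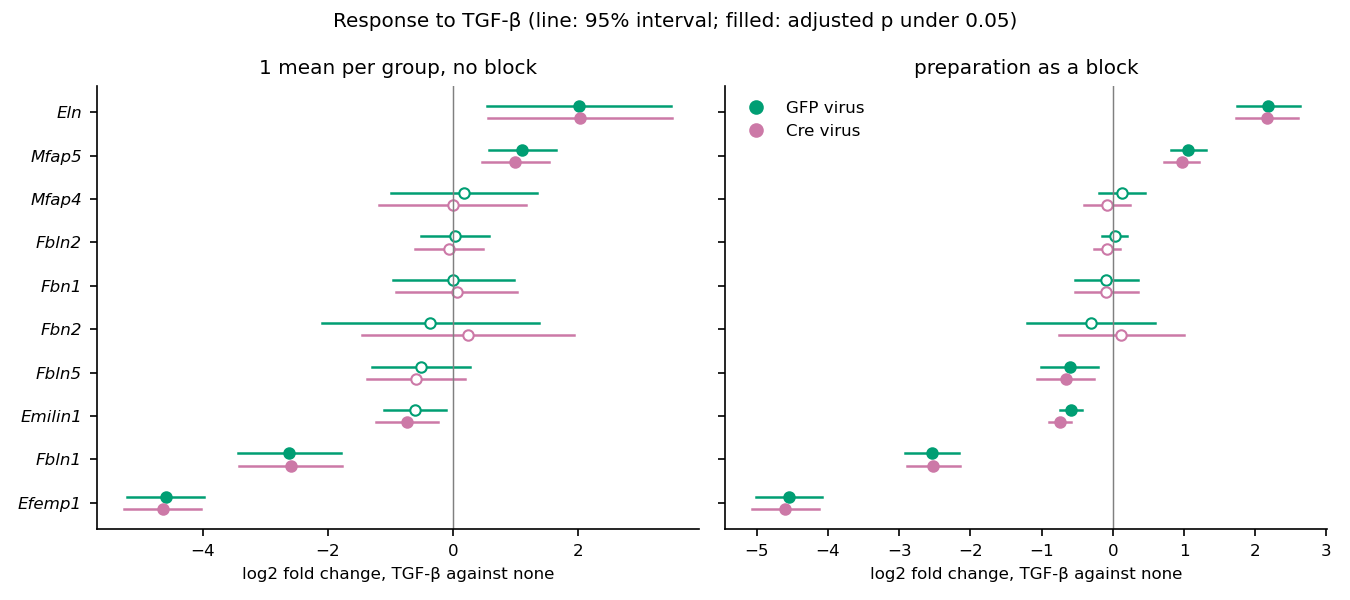
Log2 fold change with TGF-beta of each gene in cells with the GFP virus (green) and the Cre virus (pink), without the block on the left and with the preparation as a block on the right. Lines are 95% intervals and filled points have an adjusted p under 0.05; 4 and 5 points are filled on the left, and 6 of each colour on the right.

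The difference between the TGF-beta responses of Cre and GFP cells was tested as an interaction. None of the 10 genes passed in either fit, and 0% of all genes were called. Before adjustment, 90 of 15285 genes had a p under 0.05 in the fit without the block and 501 in the fit with it, and the 10 had 0 in both. Both counts over all genes were below the share of 0.05 that chance alone gives. The differences of the 10 ranged from -0.18 for Mfap4 to 0.61 for Fbn2, and without Fbn2 up to 0.06. The tightest interval with the block was that of Emilin1, from -0.36 to 0.07. Intervals that include 0 do not show that the responses were alike.

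Cre against GFP cells addressed what the Cre virus, intended to delete Has2, did to these genes. None of the 10 passed without TGF-beta or with it, in either fit. EdgeR called 0% of all genes without the block in both media, with 169 genes (no TGF-beta) and 268 genes (TGF-beta) at a p under 0.05 before adjustment. Both counts were below the share of 0.05 that chance alone gives, and the fit without the block counts the spread between preparations as error. With the block 882 and 2039 genes had such a p. With preparation as a block edgeR called 0.17% without TGF-beta and 0.0654% with it, and DESeq2 called 0 of the 10 in both. The CPM ranges of Cre and GFP cells overlapped for all 10 genes, while 1.35% of all genes did not overlap in each medium. The differences were small and mostly below 0: 9 of 10 without TGF-beta, with a median of -0.11, and 9 of 10 with it, with a median of -0.18. Over all genes the medians were -0.01 and -0.005, and 7337 of 15285 genes were above 0 without TGF-beta and 7491 with it. The marker lists had medians of -0.06 and -0.11 for fibroblasts, -0.11 and -0.16 for smooth muscle and pericytes, -0.10 and -0.18 for endothelium, -0.05 and 0.01 for macrophages, 0.31 and 0.26 for the mesothelium and 0.29 and 0.79 for the 2 tested cardiomyocyte genes. With the block 4 of 8 fibroblast genes had a p under 0.05 before adjustment with TGF-beta, and the mesothelial gene Upk1b rose with the Cre virus without TGF-beta (1.74 ± 0.28, adjusted p = 0.0344, named after its values were seen). The part of these markers in the differences of the 10 genes was not tested.

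Fbn1 had the largest difference with the Cre virus once both media were averaged. Its CPM values, given above, were lower in the Cre library than in the GFP library of the same preparation in all 8 pairs. The log2 difference without TGF-beta was -0.37 ± 0.46, and -0.49, -0.09, -0.47 and -0.35 by preparation. With TGF-beta it was -0.31 ± 0.45, and -0.19, -0.31, -0.17 and -0.84 by preparation. Averaged over both media with the block, Fbn1 differed by -0.37 ± 0.14, which did not pass (adjusted p = 0.211, where 0.785% of all genes were called). Without preparation 4 the same fit gave -0.32 and Fbn1 was called lower (adjusted p = 0.0258, with 1.43% of all genes called).

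A further 4 genes, Eln, Fbln1, Fbln2 and Emilin1, were lower with the Cre virus in 4 of 4 preparations after averaging, and none of them passed. The share of all genes with such a run of signs was not computed, so the count does not set these genes apart. Without the block the averaged comparison called 0% of all genes, and 0.165% without preparation 4. Emilin1 differed by -0.14 ± 0.05 with the block (adjusted p = 0.183), Fbln2 by -0.14 ± 0.06 (adjusted p = 0.256), Fbln1 by -0.19 ± 0.12 and Eln by -0.19 ± 0.14. For Emilin1 the difference was nearer 0 without TGF-beta (-0.07 ± 0.07 with the block) than with it (-0.21 ± 0.07, adjusted p = 0.267), and its interaction did not pass. Mfap5 was the single gene above 0, at 0.04 ± 0.08, and was higher in 3 of 4 preparations. Across 15262 genes with a length, the averaged Cre difference with the block had a Spearman rho of -0.363 with exon length, over libraries that all genes share. The 10 genes had a median length of 5653.5 bases against 4069.5 over all genes. Of the 10, 7 were above the median of all genes, among them Fbn1 at 12128 bases. The part of length in their differences was not tested.

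**Figure D4:**
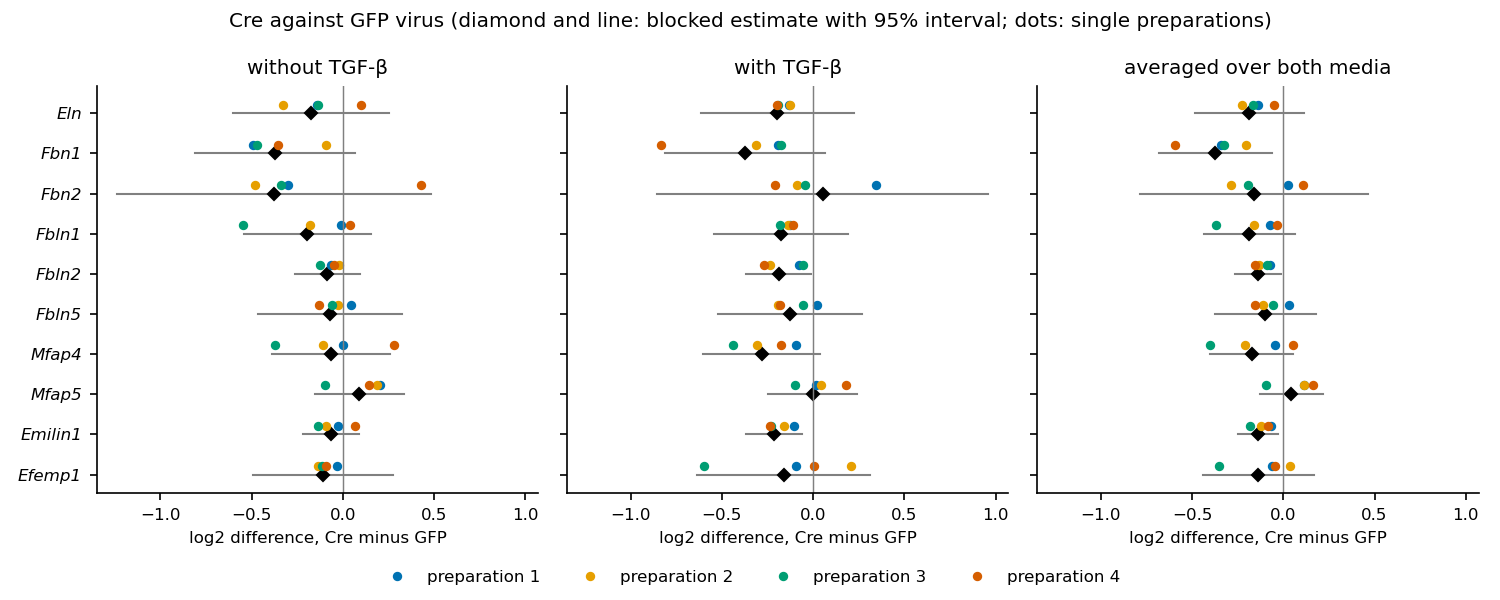
Log2 difference of each gene between Cre and GFP cells without TGF-beta, with TGF-beta and averaged. Coloured dots are single preparations, diamonds the estimate with the preparation as a block and grey lines its 95% interval; Fbn1 is lower in the Cre library in every preparation of both media, and no gene passed the test.

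Among the 10 genes the preparations differed more than the viruses did. The virus accounted for 0.0535% (Efemp1) to 7.86% (Fbn1) of the sum of squares of log2 CPM, and preparation for 1.30% (Efemp1) to 93.0% (Mfap4). Preparation is a factor of 4 levels and takes up more degrees of freedom than virus or TGF-beta, so its shares are not directly comparable with theirs. Preparation held the largest share for Mfap4, Fbln2 (84.9%), Fbn2 (83.3%), Fbn1 (76.1%) and Fbln5 (49.4%, against 37.2% for TGF-beta). TGF-beta held the largest share for Efemp1, Fbln1 (88.3%), Mfap5 (72.3%), Emilin1 (67.3%) and Eln (52.4%).

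Preparation 4 was the lowest of its group in all 4 groups for 8 of the 10 genes. Mfap5 was lowest there in 3 groups. Efemp1 was not lowest in any group and was highest in both groups without TGF-beta. For Eln the mean of preparations 1 to 3 was 7.52 and 6.09 times that of preparation 4 in GFP and Cre cells, and 3.28 and 3.40 times with TGF-beta. For Fbn1 the ratio was larger with TGF-beta, from 1.76 and 1.76 without TGF-beta to 2.80 and 4.27 with it. In preparation 4 the fibroblast marker sum, mostly Col1a1 and Col1a2, was also lower, and the macrophage marker sum, mostly Lyz2, was higher. The values are given above, and the part of these markers in the gaps was not tested.

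The other genes of the elastic fibre pathway were taken as a list of 52, of which 46 could be tested. In GFP cells 11 rose with TGF-beta, 12 fell and 23 did not pass, where 29.1% of all genes were called (13.8% higher, 15.3% lower). With the block 16 rose and 17 fell, where 49.1% of all genes were called (22.6% higher, 26.5% lower). In Cre cells 10 rose and 11 fell (30.3% of all genes called), and with the block 15 rose and 17 fell (52.5%). No gene of the list passed in any comparison of Cre with GFP cells, in either fit with all 4 preparations. The list's median in GFP cells was -0.09, beside -0.02 over all genes.

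Of the 11 genes for crosslinking and assembly, 4 rose and 2 fell with TGF-beta in GFP cells, and 4 and 4 with the block, beside the same shares of all genes. The risers were lysyl oxidases, the enzymes that crosslink elastin and collagen. Lox rose by 1.82 ± 0.35 (log2 ± SE, adjusted p = 0.00125), from 1394 ± 97.95 to 4545 ± 1433 CPM. Loxl2 rose by 1.38 ± 0.33 (adjusted p = 0.00538) and Loxl3 by 1.01 ± 0.26 (adjusted p = 0.00797). Loxl4 was the fourth, at 1.08 ± 0.35. Loxl1, the family member most closely tied to elastin, did not pass (-0.11 ± 0.20, at 1009 ± 170 CPM in GFP cells). Decorin (Dcn), a small proteoglycan that binds collagen and TGF-beta and is also on the fibroblast marker list, fell by 1.43 (SE 0.28). Loxl4 and Loxl1 were named after their values were seen.

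Of the 18 tested genes for microfibrils and latent TGF-beta binding, 3 rose and 7 fell, beside 13.8% and 15.3% of all genes. With the block 4 rose and 9 fell, beside 22.6% and 26.5%. Ltbp2, a fibrillin-like protein of the latent TGF-beta binding family, went from 705 ± 113 to 3584 ± 658 CPM, a rise of 2.46 ± 0.21 (log2 ± SE). Adamts6, a protease of the family that processes microfibril proteins, rose by 1.96 ± 0.23, from 6.46 ± 2.32 to 23.4 ± 3.38 CPM. Emilin2, the relative of Emilin1, fell by 2.17 (SE 0.12, adjusted p = 2.51e-08), from 76.2 ± 3.03 to 16.04 ± 4.02 CPM. Adamtsl4, which promotes fibrillin deposition, fell by 2.46 (SE 0.27), from 57.9 ± 13.9 to 9.84 ± 2.29 CPM.

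Of the 17 tested elastin receptors, elastin-degrading enzymes and their inhibitors, 4 rose and 3 fell, beside 13.8% and 15.3% of all genes. With the block 8 rose and 4 fell, beside 22.6% and 26.5%. The integrin subunit Itga5, part of the main fibronectin receptor, rose by 2.04 ± 0.16 (adjusted p = 5.41e-07). The protease inhibitor Timp1 rose by 0.93 ± 0.16, from 2197 ± 415 to 3928 ± 578 CPM, while its relative Timp2 fell by 1.34 (SE 0.25), from 2183 ± 496 to 804 ± 182. The metalloproteinase Mmp2, which can degrade elastin, fell by 1.37 (SE 0.28), from 809 ± 201 to 291 ± 68.6 CPM. These 12 genes named by rule were also called in the same direction in Cre cells.

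**Figure D5:**
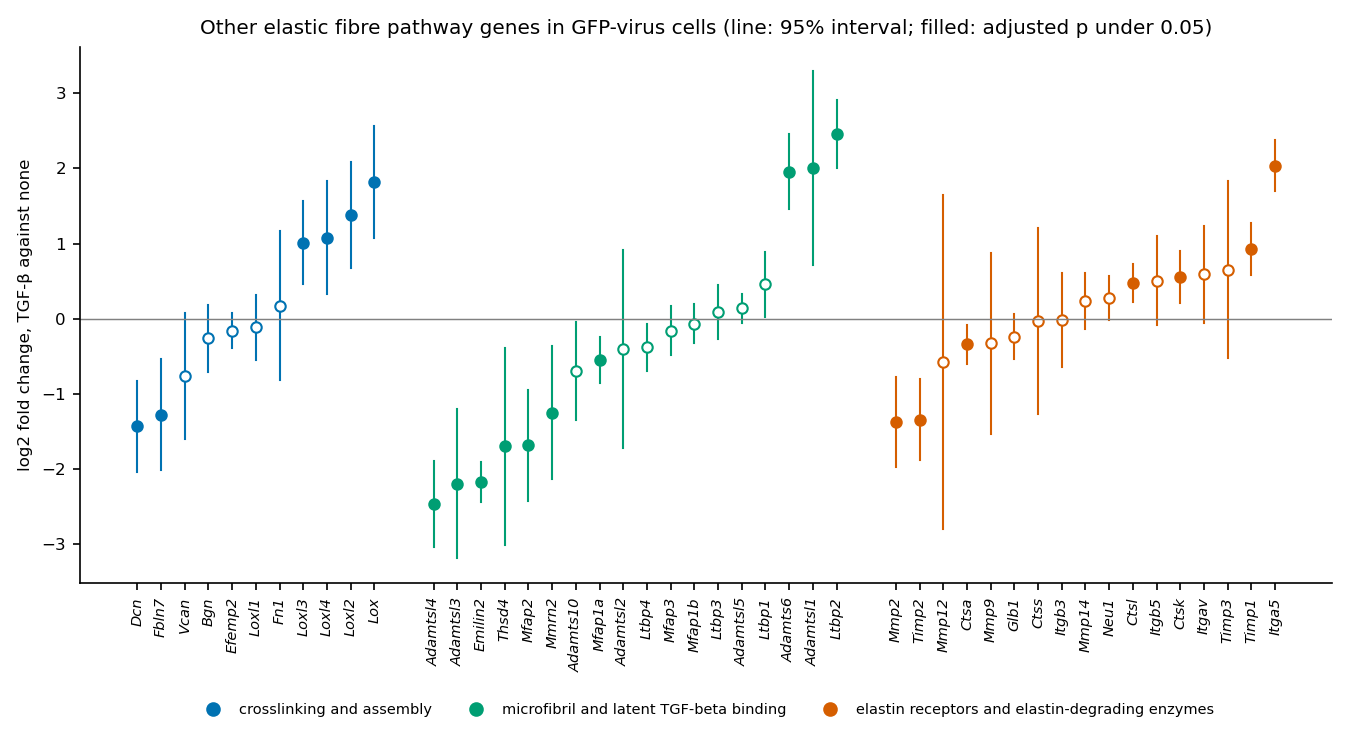
Log2 fold change with TGF-beta in GFP cells of the 46 tested pathway genes outside the 10, in 3 colours by role and ordered by value within each. Lines are 95% intervals and filled points have an adjusted p under 0.05; 11 points are filled above 0 and 12 below, with Ltbp2 (2.46) at the top and Adamtsl4 (-2.46) at the bottom.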

How the data were processed

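Whole-number counts of reads per gene, with no normalization, were deposited for 55414 mouse genes and 16 libraries. The submitters' processing notes name FastQC 0.10.1, HTSeq 0.10.0 and the build mm39 (GRCm39). Which aligner, annotation and strandedness went into the counting is not given in the sources used here. Reads of overlapping or antisense genes therefore cannot be told apart. Symbols came from a table of gene names and matched 52081 identifiers, which hold 99.9% of the counts. CPM was computed on the library total. CPM per kilobase used the union of exons in GENCODE M21, an annotation of the earlier build GRCm38 and not the one used for counting.

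Differences were tested with edgeR 4.0.16 in R 4.3.3 (quasi-likelihood F test, robust, TMM factors, 1 mean per group over all 16 libraries). The filterByExpr function (minimum count 10, minimum total 15) kept 15285 genes, and Benjamini-Hochberg adjustment ran over all of them. The script was tested on simulated data first. Alternatives were the preparation as a block, DESeq2 1.42.0, RLE factors, other filters, sex as a covariate, only the libraries compared, and each library or preparation left out. The block with a preparation left out was chosen after seeing the data. Differences of single preparations and shares of the sum of squares are on the scale log2(CPM + 0.5).

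Groups came from the labels, and the replicate number is shared across groups together with the preparation code in the library names. Deviations from the group means correlated between same-numbered libraries in all 24 pairs (r from 0.323 to 0.838) and had a median r of -0.130 over the 72 other pairs, so the numbers pair the samples. The labels do not say whether the 4 preparations are separate animals. P-values without the block rest on the spread between the libraries of a group, which includes that between preparations. Those with the block rest on the spread that remains once preparations are accounted for. Both cover these 4 preparations only. Precision follows from 4 libraries per group, and the floor for 0 counts covers counting error only.

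The 10 genes, the pathway list and the marker lists were chosen with earlier results of these data known. All 10 genes are reported whatever their result, and so are Has2 and Acta2. From each of the 3 pathway sublists the text names up to 4 genes with the smallest adjusted p for TGF-beta in GFP cells and a mean of at least 2 CPM in the higher group. Loxl1 and Loxl4 are outside that rule. Cells with a Has2 overexpression virus were not analysed here.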

Additional observations from a re-analysis of the deposited data

Results flagged for a closer look

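Of the 40 sets of 4 libraries formed by the 10 genes and 4 groups, 3 held a library far from the other 3 by Dixon's 95% criterion, and in all 3 it was the lowest library and came from preparation 4. Chance alone flags about 1 in 20 such sets. Fbn1 was at 1279 CPM in preparation 4 of the GFP cells with TGF-beta, where the next library was at 3366. It was at 716 CPM in the same preparation of the Cre cells with TGF-beta, where the next was at 2950.3. Fbn2 was at 0.0782 CPM in preparation 4 of the GFP cells with TGF-beta, with the next at 0.672, and this library held 2 Fbn2 counts.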

How the results depend on the processing

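The calls for Fbln1 and Efemp1 with TGF-beta held under every alternative run. With the block and 1 preparation left out, a setting chosen after seeing the data, no TGF-beta call of the main fit was lost. All 16 results in GFP cells and all 20 in Cre cells stayed called. Of the 60 differences of the 10 genes, 9 were called, none of these changed sign, and 33 that were not called changed sign under at least 1 setting. With the replicate block Emilin1 (GFP cells) and Fbln5 (both viruses) became called, and the block changed no other call of the 10 genes. Over all genes the share called with TGF-beta went from 29.1% to 49.1% in GFP cells with the block. In Cre cells 32 pathway genes were called with TGF-beta in place of 21, beside 52.5% of all genes in place of 30.3%. Fbn1 differed with TGF-beta by -0.0908 in GFP cells and by -0.0915 in Cre cells once the replicate block was added, and in GFP cells by -0.0174 with a filter of 5 CPM in 4 libraries and by -0.00712 with sex as a covariate, each of the opposite sign to the value reported. Mfap4 with TGF-beta in Cre cells changed sign with DESeq2 (0.000596), RLE factors (0.00286), sex (0.0391) and only the libraries compared (0.00101). With no filter Eln was no longer called (adjusted p = 0.121 in GFP cells and 0.113 in Cre cells), and with the filter of 5 CPM Emilin1 was called in GFP cells (adjusted p = 0.0463). With the block and without preparation 4, 36 pathway genes were called with TGF-beta in Cre cells, beside 56.6% of all genes. In the averaged Cre comparison the same fit called 1 of the 10 genes (Fbn1) and 3 pathway genes, beside 1.43% of all genes. The cause of these changes was not tested.

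With 1 library or preparation left out, 2 to 5 of the 10 genes were called with TGF-beta in GFP cells and 2 to 6 in Cre cells, and 12 to 30 and 12 to 29 of the pathway genes. The highest of these counts were without preparation 4, where the share of all genes called rose as well. It went from 29.1% to 39.9% in GFP cells and from 30.3% to 42.7% in Cre cells. The shares for the other fits are not set beside the counts, so the counts alone do not set these genes apart. The log2 fold change with TGF-beta then ran, in GFP cells, from -0.19 to 0.28 for Fbn1, from -0.74 to 0.0912 for Fbn2, from -0.11 to 0.20 for Fbln2 and from -0.11 to 0.54 for Mfap4. In Cre cells it ran from -0.11 to 0.38 for Fbn1, from -0.17 to 0.65 for Fbn2, from -0.18 to 0.12 for Fbln2 and from -0.25 to 0.36 for Mfap4. The Cre difference ran from -0.24 to 0.0621 for Emilin1 without TGF-beta and from -0.59 to 0.0053 for Fbn1 with TGF-beta, and averaged from -0.42 to 0.00803 for Fbn2, from -0.22 to 0.0389 for Fbln5 and from -0.0547 to 0.12 for Mfap5. Depth limits Fbn2, with 0 to 38 counts per library.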
